A study of Mus musculus with 32 samples.

Results

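The junction genes of the blood-testis barrier were followed through polysome-associated RNA of Sertoli and Leydig cells. A fixed list of 32 gene symbols was matched, by current symbol or synonym, to probe sets that carry a single gene symbol. Each of the 32 genes matched exactly 1 probe set, out of 35556 probe sets on the array and 21789 with a single symbol. By role the list holds 11 membrane proteins of tight junctions, 3 tight junction scaffolds, 2 connexins, 5 cadherins and catenins, 5 nectins and afadin, and 6 actin linkers.

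In RiboTag mice, Cre recombinase switches on a ribosomal protein with a hemagglutinin (HA) tag, and anti-HA beads then pull tagged polysomes out of a testis homogenate. RNA from these immunoprecipitates (IPs) and from the homogenate itself (input) was amplified and hybridized to 32 Affymetrix Mouse Gene 1.0 ST arrays, and the deposited values are log2 RMA signals, one per probe set and array. All mice were adult double heterozygotes for RiboTag and a Cre transgene. AMH-Cre drives recombination in Sertoli cells, the somatic cells that line the seminiferous tubule, and Cyp17iCre in the steroid-producing Leydig cells of the interstitium. However, the study also saw HA staining in scattered tubule cells of the Cyp17iCre: RiboTag line. It proposes that these are Sertoli cells, because Sertoli cell transcripts were not depleted in the IPs of that line. From AMH-Cre: RiboTag testes there were 2 IPs each after acyline, after acyline with FSH for 1 h and after acyline with FSH for 4 h. There were also 2 IPs each after cetrorelix and after cetrorelix with testosterone for 4 h, and then 5 IPs and 5 inputs from saline controls. Cyp17iCre: RiboTag testes gave 2 IPs each after acyline, after acyline with LH for 1 h and after acyline with LH for 4 h, beside 3 IPs and 3 inputs from saline controls. Acyline and cetrorelix are GnRH antagonists, which suppress pituitary LH and, less completely, FSH. The antagonists were injected daily for 3 days in AMH-Cre: RiboTag mice, and acyline for a day longer, 4 days, in Cyp17iCre: RiboTag mice. The study states its group sizes as numbers of mice, whereas the array labels name no animal, and the errors given here measure the spread between arrays.

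Sertoli cells meet near the base of the tubule in a belt of tight junctions, gap junctions and adherens-type junctions, and this belt keeps blood-borne molecules away from meiotic and postmeiotic germ cells. Claudins and occludin seal the gap between neighboring cells, zonula occludens proteins and cingulin tie them to the cytoskeleton, and nectins, cadherins and their catenins hold the membranes together. The ectoplasmic specialization, a testis-specific junction, adds a layer of bundled actin that also anchors elongating spermatids, where nectin-2 on the Sertoli cell binds nectin-3 on the spermatid in mouse.

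Upstream sequence was available for 23 of the 32 genes in RefSeq promoter windows (build GRCm38.p6). The 250 bases before the annotated start are shown for 5 genes that carry the contrast between the cell types: Cldn11, Ocln and Vcl were enriched in Sertoli IPs alone, and F11r and Gja1 in the IPs of both lines. Capitals mark every match, on either strand, to one of 6 short motifs. These were AACAAT for SOX factors, AAGGTCA for the orphan receptor NR5A1, AGATAA for GATA factors, AGAACA for the hexamer of the androgen receptor, GGAATG for TEAD factors, and GGGCGG for the SP and KLF families.
Cldn11 (chr3:31149670-31149919, plus strand): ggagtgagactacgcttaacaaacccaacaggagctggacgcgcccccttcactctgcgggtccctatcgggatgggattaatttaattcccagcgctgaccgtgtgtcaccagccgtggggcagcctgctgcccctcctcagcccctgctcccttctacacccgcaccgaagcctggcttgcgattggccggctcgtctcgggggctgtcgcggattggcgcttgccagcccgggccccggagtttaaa
Ocln (chr13:100552719-100552968, minus strand): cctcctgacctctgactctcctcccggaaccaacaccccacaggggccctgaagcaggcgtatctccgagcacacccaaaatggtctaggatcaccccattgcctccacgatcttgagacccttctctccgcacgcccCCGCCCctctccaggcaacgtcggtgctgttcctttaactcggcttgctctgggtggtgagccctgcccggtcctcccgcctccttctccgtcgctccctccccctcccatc
Vcl (chr14:20929148-20929397, plus strand): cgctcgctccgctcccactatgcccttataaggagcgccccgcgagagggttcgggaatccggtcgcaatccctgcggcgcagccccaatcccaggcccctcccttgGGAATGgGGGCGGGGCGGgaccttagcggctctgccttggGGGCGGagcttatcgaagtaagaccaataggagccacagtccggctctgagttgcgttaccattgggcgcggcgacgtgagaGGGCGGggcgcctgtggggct
F11r (chr1:171437311-171437560, plus strand): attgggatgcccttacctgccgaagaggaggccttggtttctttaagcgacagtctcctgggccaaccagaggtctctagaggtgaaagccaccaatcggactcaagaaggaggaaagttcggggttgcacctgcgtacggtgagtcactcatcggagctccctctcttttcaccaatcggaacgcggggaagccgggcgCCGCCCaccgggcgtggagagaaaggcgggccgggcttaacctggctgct
Gja1 (chr10:56377050-56377299, plus strand): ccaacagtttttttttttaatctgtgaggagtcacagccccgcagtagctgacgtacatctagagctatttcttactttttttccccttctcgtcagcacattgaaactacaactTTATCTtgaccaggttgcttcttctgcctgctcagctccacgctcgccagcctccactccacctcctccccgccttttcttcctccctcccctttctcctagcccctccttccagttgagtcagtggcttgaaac
The Cldn11 window held no match. The Ocln window shown and the F11r window each held 1 match to GGGCGG, both on the opposite strand, 112 and 50 bases before the start. A further Ocln window, not shown, held 1 match to GGGCGG on its own strand, 43 bases before its start. Vcl held 4 matches on its own strand, at 21, 103, 131 and 136 bases, the last pair overlapping. Of the 23 genes searched, only Vcl had GGAATG, at 143 bases before the start. Gja1 had the GATA letters on the opposite strand at 135 bases, and Tjp3, not shown, had them on its own strand at 72 bases. Over all 33 windows of the 23 genes, GGGCGG was present in 24 (72.7%), compared with 32.7% of the 32851 windows of all genes. The other motifs were present in 0 (SOX), 1 (NR5A1), 2 (GATA), 2 (androgen receptor) and 1 (TEAD) of the 33 windows, against 9.42%, 4.08%, 9.99%, 16.1% and 12.6% of all windows. These are matches of letters only, and windows of one gene can overlap.

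Whether a transcript belongs to a cell type was asked by setting the IP against its input. Enrichment is the difference between the mean log2 signals of IP and input in saline-treated mice, turned back into a ratio. It was fitted with limma on all probe sets with a linear signal over 50 on at least 1 array of the fit. A gene was called at a Benjamini-Hochberg adjusted p under 0.05 together with a fold of at least 2. Cldn1 (claudin-1), Marveld2 (tricellulin) and Cxadr (the coxsackie and adenovirus receptor) did not pass the signal filter in any fit, and their log2 signals were no higher than 4.59, 5.54 and 5.64 on any of the arrays described here.

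In Sertoli cells the junction genes were largely enriched. Of the 29 genes tested, 18 were called higher in the IPs, compared with 12.4% of all probe sets tested, and 1 was lower, compared with 11.7%. The list was chosen with earlier results of these data known, so these shares describe the list and do not test it. The median log2 ratio of the 29 genes was 1.39, and that of all probe sets tested was -0.03. By limma, 26 of the 29 genes (89.7%) had an unadjusted p under 0.05 in either direction, beside 71.3% of all probe sets tested. Overlap of saline IPs and inputs is described below gene by gene, and its share over all probe sets was not counted. The enriched genes came from every role: 6 of 8 tight junction membrane proteins, 2 of 3 scaffolds, 1 of 2 connexins, 4 of 5 cadherins and catenins, 2 of 5 nectins and afadin, and 3 of 6 actin linkers. Sertoli saline replicates 4 and 5 stood somewhat apart from replicates 1 to 3, with a standard deviation of log2 differences of 0.280 to 0.307 between the subsets of IPs and 0.244 to 0.276 among IPs 1 to 3, and of 0.289 to 0.342 between the subsets of inputs and 0.223 to 0.251 among inputs 1 to 3. The same 19 genes were called when only replicates 1 to 3 were fitted, and no log2 ratio moved by more than 0.28.

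**Figure D1:**
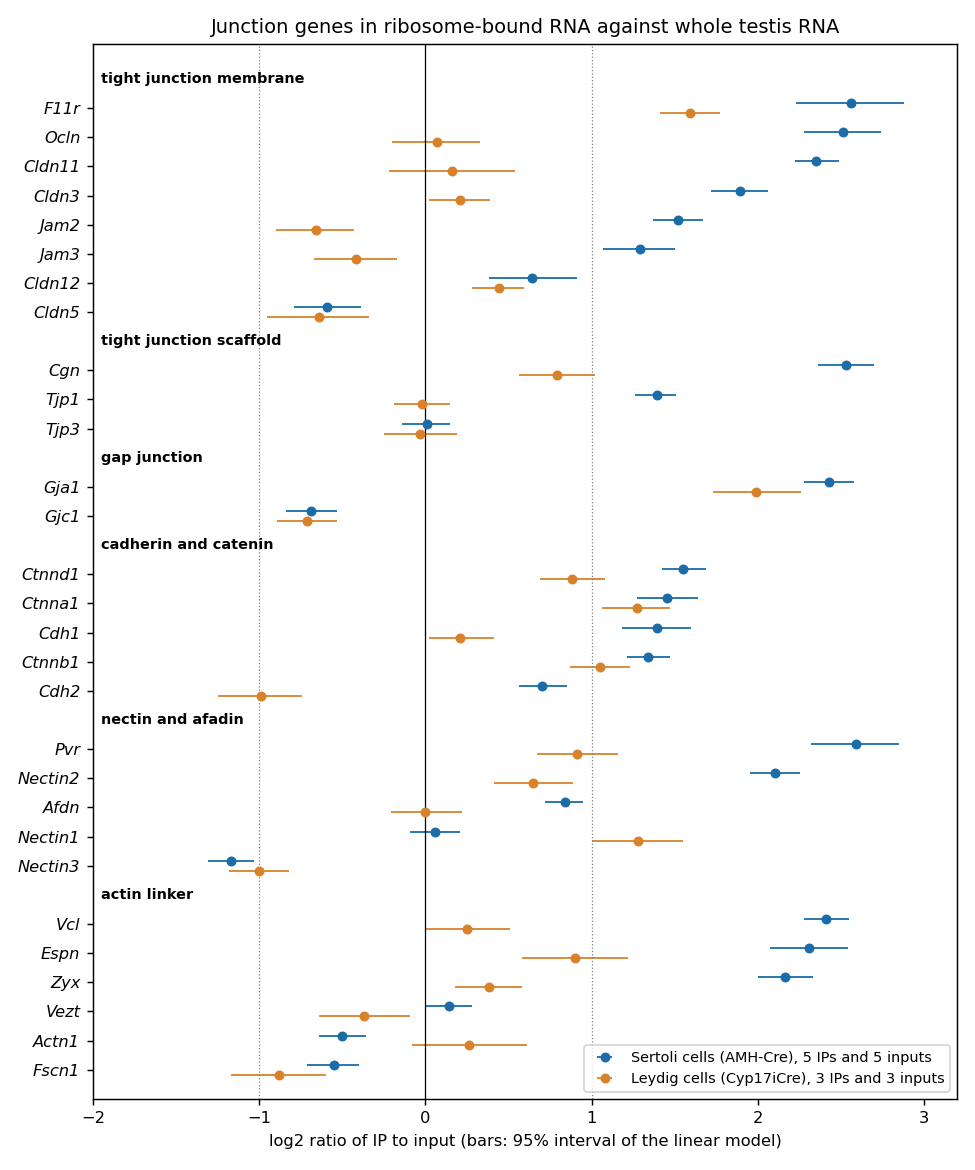
Log2 ratio of IP to input (x axis) for the 29 tested junction genes, grouped by role, in Sertoli cells (blue, 5 IPs and 5 inputs) and Leydig cells (orange, 3 IPs and 3 inputs). Points are the fitted ratios, bars their 95% intervals and dotted lines a fold of 2. In Sertoli cells 18 genes lie beyond a fold of 2 on the right and Nectin3 on the left, whereas in Leydig cells 5 genes lie beyond it on the right.

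Among the tight junction membrane proteins, F11r, which encodes junctional adhesion molecule A, had log2 signals of 11.45, 11.44, 11.42, 11.39 and 11.40 in Sertoli IPs, against 8.85, 8.43, 8.57, 9.32 and 9.15 in the inputs. The IPs were almost identical to each other, and the inputs of replicates 4 and 5 were the highest of their group. F11r was enriched 5.89-fold (95% interval 4.70 to 7.38, adjusted p = 1.31e-08). Ocln, the gene of occludin, had 9.57, 9.50, 9.47, 9.06 and 9.15 in Sertoli IPs and 6.79, 6.70, 6.85, 6.94 and 6.91 in the inputs. Here the IPs of replicates 4 and 5 were the lowest, yet all IPs lay more than 2 log2 units above all inputs, a 5.70-fold enrichment (4.87 to 6.67, adjusted p = 8.79e-10). Cldn11, whose claudin forms the tight junction strands of Sertoli cells in mouse, had 12.14, 12.12, 12.14, 12.02 and 11.96 in the IPs and 9.78, 9.63, 9.64, 9.81 and 9.76 in the inputs, with no overlap. Cldn3, a claudin of newly forming Sertoli cell junctions in mouse, lay between 9.23 and 9.55 in the IPs and between 7.34 and 7.60 in the inputs (3.71-fold, 3.29 to 4.18).

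The junctional adhesion molecules B and C were enriched to a smaller degree than F11r. Jam2 had log2 signals of 10.32, 10.14, 10.10, 10.09 and 10.10 in Sertoli IPs and 8.68, 8.54, 8.56, 8.78 and 8.58 in the inputs. Replicate 1 was the highest of the IPs, and the other 4 IPs fell within 0.05 log2 units of each other. Jam3 had 9.76, 9.74, 9.81, 9.56 and 9.53 in the IPs and 8.36, 8.14, 8.31, 8.55 and 8.63 in the inputs. Neither gene overlapped between IPs and inputs, and the ratios were 2.87 (2.59 to 3.19) for Jam2 and 2.44 (2.10 to 2.83) for Jam3, with adjusted p of 1.76e-09 and 1.65e-07. The remaining tested claudins were not called. Cldn12 had a ratio of 1.56 (1.30 to 1.88), and Cldn5, best known as the claudin of endothelial tight junctions, had a ratio of 0.666 (0.580 to 0.765). Both passed the adjusted p but not the fold. Of 10 endothelial marker genes, 9 were tested and limma called 0 in either direction, with 1 above and 6 below at an unadjusted p under 0.05, and the summed linear signal was 716 to 805 in Sertoli IPs and 792 to 859 in the inputs. The part of endothelial RNA in the Cldn5 value was not tested.

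Both the scaffold that binds claudins and the cytoplasmic plaque protein cingulin were enriched in Sertoli cells. Cgn (cingulin) had log2 signals of 11.22, 11.13, 11.20, 11.20 and 11.15 in the IPs and 8.60, 8.42, 8.66, 8.68 and 8.89 in the inputs. With no overlap and tightly grouped IPs, its enrichment was 5.77-fold (5.12 to 6.51, adjusted p = 1.82e-10). Tjp1, which encodes ZO-1, had 11.20, 11.11, 11.23, 11.16 and 11.09 in the IPs and 9.80, 9.84, 9.65, 9.75 and 9.81 in the inputs, a 2.62-fold enrichment (2.40 to 2.85). Tjp3, which encodes the related ZO-3, had a ratio of 1.01 (0.910 to 1.11). Its log2 signals were low, between 6.25 and 6.54 in the IPs and between 6.29 and 6.44 in the inputs. Array medians over all probe sets were 6.36 to 6.5. The connexins lay on opposite sides of 1. Gja1, the gene of connexin 43, had 11.98, 11.86, 11.88, 11.89 and 11.96 in Sertoli IPs and 9.63, 9.29, 9.46, 9.55 and 9.48 in the inputs (5.39-fold, 4.86 to 5.98). Gjc1, the gene of connexin 45, lay between 6.72 and 6.90 in the IPs and between 7.27 and 7.61 in the inputs. Its groups did not overlap either, but the ratio of 0.621 (0.558 to 0.691) did not reach the fold of 2.

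The catenins, which couple cadherins to actin, were enriched between 2.53-fold and 2.94-fold. Ctnnd1 (p120 catenin) had log2 signals of 10.75, 10.61, 10.60, 10.66 and 10.64 in Sertoli IPs and 9.09, 9.03, 8.99, 9.17 and 9.21 in the inputs. Ctnna1 (alpha-E-catenin) had 10.19, 10.00, 9.90, 9.93 and 9.83 in the IPs and 8.59, 8.30, 8.50, 8.55 and 8.64 in the inputs. Ctnnb1 (beta-catenin, which also acts in Wnt signaling) had 11.50, 11.47, 11.45, 11.34 and 11.42 in the IPs and 10.20, 10.00, 10.06, 10.04 and 10.19 in the inputs. For all 3 catenins every IP exceeded every input, and the ratios were 2.94 (2.68 to 3.22), 2.74 (2.41 to 3.11) and 2.53 (2.31 to 2.77) in that order. The cadherins themselves differed. Cdh1 (E-cadherin) had 7.48, 7.71, 7.77, 7.36 and 7.55 in the IPs and 6.44, 6.07, 6.06, 6.16 and 6.21 in the inputs and was enriched 2.62-fold (2.26 to 3.03). Cdh2 (N-cadherin) had 10.84, 10.83, 10.81, 10.72 and 10.72 in the IPs and 10.03, 10.19, 10.09, 9.92 and 10.17 in the inputs. Its groups did not overlap and its adjusted p was 9.78e-07, but with a ratio of 1.63 (1.48 to 1.80) it was not called.

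The nectin group held both the largest ratio and the only gene of the list called lower in Sertoli IPs. Pvr, a nectin-like adhesion molecule, had log2 signals of 10.18, 10.11, 10.00, 9.74 and 9.77 in Sertoli IPs and 7.37, 7.19, 7.12, 7.62 and 7.57 in the inputs. Replicates 4 and 5 were the lowest of the IPs and the highest of the inputs, and the ratio was 6.01 (5.00 to 7.21). Nectin2 had 10.73, 10.75, 10.73, 10.56 and 10.63 in the IPs and 8.55, 8.55, 8.48, 8.58 and 8.76 in the inputs, with a ratio of 4.29 (3.87 to 4.74). Its spermatid partner Nectin3 ran the other way, with 10.19, 10.41, 10.40, 10.45 and 10.42 in the IPs and 11.62, 11.59, 11.53, 11.52 and 11.48 in the inputs. All 5 IPs were below all 5 inputs, replicate 1 being the lowest, and the ratio was 0.443 (0.403 to 0.488, adjusted p = 6.92e-09). Of 12 germ cell marker genes, 9 were lower in Sertoli IPs and 0 were higher, and their summed linear signal was 16448 to 19454 in the IPs, against 39437 to 43150 in the inputs. The part of germ cell RNA in the Nectin3 value was not tested. Afdn, which encodes the nectin-binding protein afadin, had a ratio of 1.79 (1.65 to 1.94) that passed the adjusted p but not the fold. Nectin1 had a ratio of 1.04 (0.937 to 1.15), with low log2 signals between 6.55 and 6.67 in the IPs and between 6.37 and 6.72 in the inputs.

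The actin linkers split into 3 enriched genes and 3 that were not called. Vcl (vinculin) had log2 signals of 11.44, 11.40, 11.44, 11.26 and 11.33 in Sertoli IPs and 8.96, 8.90, 8.88, 8.99 and 9.06 in the inputs. Espn, whose actin-bundling product espin is a core protein of the ectoplasmic specialization, had 10.64, 10.38, 10.46, 10.73 and 10.64 in the IPs and 8.19, 8.10, 8.06, 8.42 and 8.55 in the inputs. Zyx (zyxin) had 10.42, 10.17, 10.24, 10.22 and 10.28 in the IPs and 8.17, 8.03, 7.90, 8.14 and 8.26 in the inputs. None of the 3 overlapped between the groups, and their ratios were 5.33 (4.87 to 5.84), 4.94 (4.21 to 5.80) and 4.48 (3.99 to 5.03). Peritubular myoid cells are contractile cells around the tubule. Of 8 of their markers, Myh11 (3.78-fold) and Myl9 (3.38-fold) were higher and Acta2 (0.328) and Cald1 (0.473) were lower, and the summed linear signal was 3571 to 3998 in the IPs, against 2202 to 2648 in the inputs. The part of myoid cell RNA in the actin linker values was not tested. Actn1 (alpha-actinin 1) and Fscn1 (the actin bundler fascin) had ratios of 0.706 (0.641 to 0.778) and 0.682 (0.611 to 0.760), below 1 with an adjusted p of 1.74e-05 and 2.08e-05 but short of the fold. Vezt (vezatin, a membrane protein of adherens junctions) had a ratio of 1.10 (0.997 to 1.21).

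Other genes of the same junctions were taken as lists, beside the 12.4% of all probe sets called higher and 11.7% called lower in this comparison. These lists too were chosen with earlier results of these data known, so their counts are descriptive. Of 24 further actin-linked junction genes tested, 15 were higher in Sertoli IPs, with a median log2 ratio of 1.37. The largest ratios belonged to Pls3 (5.77-fold), which encodes the actin bundler plastin 3, and Myo7a (5.55-fold), an unconventional myosin, and the smallest to Actn4 (0.707) and Tln2 (0.722). Further tight junction and polarity genes gave 6 higher of 21, led by the polarity kinase and its partner, Prkci (4.30-fold) and Pard6b (3.98-fold), with Pals1 (0.594) and Magi3 (0.616) at the low end. Further cadherins, catenins and nectins gave 4 higher of 17, with Ctnnal1 (5.97-fold) and Ctnna2 (3.87-fold) at the top and Cdh11 (0.522) and Ctnna3 (0.536) at the bottom. Among 8 further connexins and pannexins, Gja6 was the 1 gene called (4.09-fold), followed by Gja4 (1.59), and the lowest ratios were those of Panx1 (0.894) and Gjb5 (0.932). Of 7 desmosome genes, limma called 0 higher (1 at an unadjusted p under 0.05) and 1, Jup (plakoglobin), lower with a ratio of 0.476. Pkp2 (0.549) came next to it, and Dsp (1.12) and Pkp3 (1.03) had the highest ratios.

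The labels were checked against cell type markers. In Sertoli IPs 14 of 15 Sertoli cell markers were higher than in the inputs and 6 of 6 tested Leydig cell markers were lower. In Leydig IPs 6 of 6 Leydig cell markers were higher and 10 of 12 germ cell markers were lower, and 1 germ cell marker was higher. However, the summed linear signal of the 15 Sertoli cell markers was 15881 to 16928 in Leydig IPs and 9085 to 9567 in their inputs, compared with 33421 to 36002 in Sertoli IPs. Clu, the marker with the highest signal and so the most weight in this sum, averaged 13.17 in Leydig IPs and 12.18 in their inputs on the log2 scale. Its ratio of 1.99 was just short of a call. Trf (2.89-fold) and Kitl (3.86-fold) were the 2 of these 15 markers called higher in Leydig IPs. At an unadjusted limma p under 0.05, 6 of the 15 were above the inputs and 1 was below. Sox9 averaged 8.30 in Leydig IPs and 8.26 in the inputs. Array medians over all probe sets lay between 6.36 and 6.50. In these bulk samples, fewer cells of a type and less RNA per cell cannot be told apart.

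In Leydig cells the enriched junction genes were F11r, Gja1, Ctnna1, Ctnnb1 and Nectin1. Of the same 29 genes, 5 were called higher in the IPs, compared with 11.0% of all probe sets tested, and 0 were lower, compared with 10.7%. The count of lower genes was 2 (Cdh2 and Nectin3) with median-centred arrays and 0 to 2 when single arrays were left out. Their median log2 ratio was 0.21, beside -0.03 for all probe sets tested. The 0 lower calls come from limma, with an ordinary linear contrast giving the same 5 genes. By limma, 22 of the 29 genes (75.9%) had an unadjusted p under 0.05 in either direction, beside 65.4% of all probe sets tested. Of the 5 enriched genes, 4 were also enriched in Sertoli cells (F11r, Gja1, Ctnna1 and Ctnnb1) and 1 was not (Nectin1), while 14 genes were enriched in Sertoli cells and not called in Leydig cells. The share of all probe sets with these joint calls was not computed, and the Leydig fit had fewer arrays. Among the 14, Cgn, Pvr, Ctnnd1, Espn and Nectin2 passed the adjusted p in Leydig IPs but not the fold.

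Gja1 had the largest ratio of the list in Leydig cells, with log2 signals of 11.51, 11.27 and 11.62 in the IPs and 9.53, 9.32 and 9.56 in the inputs (3.99-fold, 3.32 to 4.79, adjusted p = 2.55e-06). F11r had 10.29, 10.17 and 10.15 in Leydig IPs and 8.55, 8.61 and 8.68 in the inputs (3.01-fold, 2.65 to 3.41). Neither gene overlapped between IPs and inputs. Ctnna1 had 9.88, 9.63 and 9.82 in the IPs and 8.49, 8.48 and 8.57 in the inputs (2.40-fold, 2.09 to 2.77). Ctnnb1 had 11.13, 11.13 and 11.30 in the IPs and 10.16, 10.11 and 10.14 in the inputs (2.07-fold, 1.83 to 2.35). Both catenins were clear of their inputs, but Ctnnb1 stood close to the fold threshold and its log2 ratio was 0.99, no longer called, without IP replicate 3. Nectin1, an adhesion molecule that binds other nectins, was called in Leydig IPs and not in Sertoli IPs, with 7.83, 8.05 and 7.68 in the IPs and 6.74, 6.44 and 6.54 in the inputs (2.42-fold, 2.00 to 2.94, adjusted p = 3.63e-05). In Sertoli IPs the same probe set stayed between 6.55 and 6.67. Given the Sertoli marker signal in Leydig IPs, the part of Sertoli cell RNA was not tested for F11r, Gja1, the catenins or any other gene of the list. The signals of Cldn11, at 9.62, 9.90 and 10.24 in Leydig IPs and 9.66, 9.65 and 9.97 in the inputs, overlapped between the groups.

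Several genes with high Sertoli enrichment had Leydig ratios near or below 1. Ocln (1.05, 0.873 to 1.25), Cldn11 (1.12, 0.858 to 1.45), Tjp1 (0.986, 0.878 to 1.11) and Vcl (1.19, 0.999 to 1.42) had intervals that include 1. Jam2 and Jam3 had ratios below 1, at 0.631 (0.537 to 0.743) and 0.749 (0.630 to 0.891), with adjusted p of 6.10e-04 and 0.0101. Cgn (1.73), Pvr (1.88), Ctnnd1 (1.85), Espn (1.86) and Nectin2 (1.57) had ratios above 1 with adjusted p between 4.48e-05 and 7.46e-04 that stayed short of the fold. At the low end, Nectin3 had 10.36, 10.40 and 10.49 in Leydig IPs and 11.35, 11.41 and 11.49 in the inputs, and Cdh2 had 8.56, 8.74 and 8.95 in the IPs and 9.75, 9.82 and 9.65 in the inputs. Neither overlapped, and with ratios of 0.500 (0.442 to 0.567) and 0.502 (0.420 to 0.601) both fell just short of a call. Fscn1 (0.541), Gjc1 (0.611) and Cldn5 (0.640) were also below 1.

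The further lists are set beside the 11.0% of all probe sets called higher and 10.7% called lower in Leydig IPs. Among them, actin-linked junction genes gave 7 higher and 1 lower of 24, with Pls3 (4.33-fold) and the integrin linker Tln1 (4.23-fold) at the top and Palld (0.454) and Tln2 (0.558) at the bottom. Tight junction and polarity genes gave 4 higher of 19, and the largest ratio of any junction gene examined in Leydig cells was that of a claudin outside the list of 32, Cldn10 (8.73-fold). Within the tight junction and polarity list, Cgnl1 (2.95-fold) was next, and Magi3 (0.578) and Tjap1 (0.605) were lowest. Cadherins, catenins and nectins gave 0 higher by limma (2 at an unadjusted p under 0.05) and 1 lower of 16 (Ctnna3, 0.412), with Cdh24 (0.598) next and Ctnnal1 (1.78) and Cdh5 (1.68) at the other end. Of 8 desmosome genes, Dsc2 (3.04-fold) and Pkp2 (2.40-fold) were higher, with Pkp1 (0.650) and Perp (0.751) lowest. Connexins and pannexins gave 0 calls of 7 by limma (1 below at an unadjusted p under 0.05) and ratios between 0.859 (Gjb5) and 1.17 (Gjd3), Panx2 (0.940) and Gja3 (1.06) being the next on each side.

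**Figure D2:**
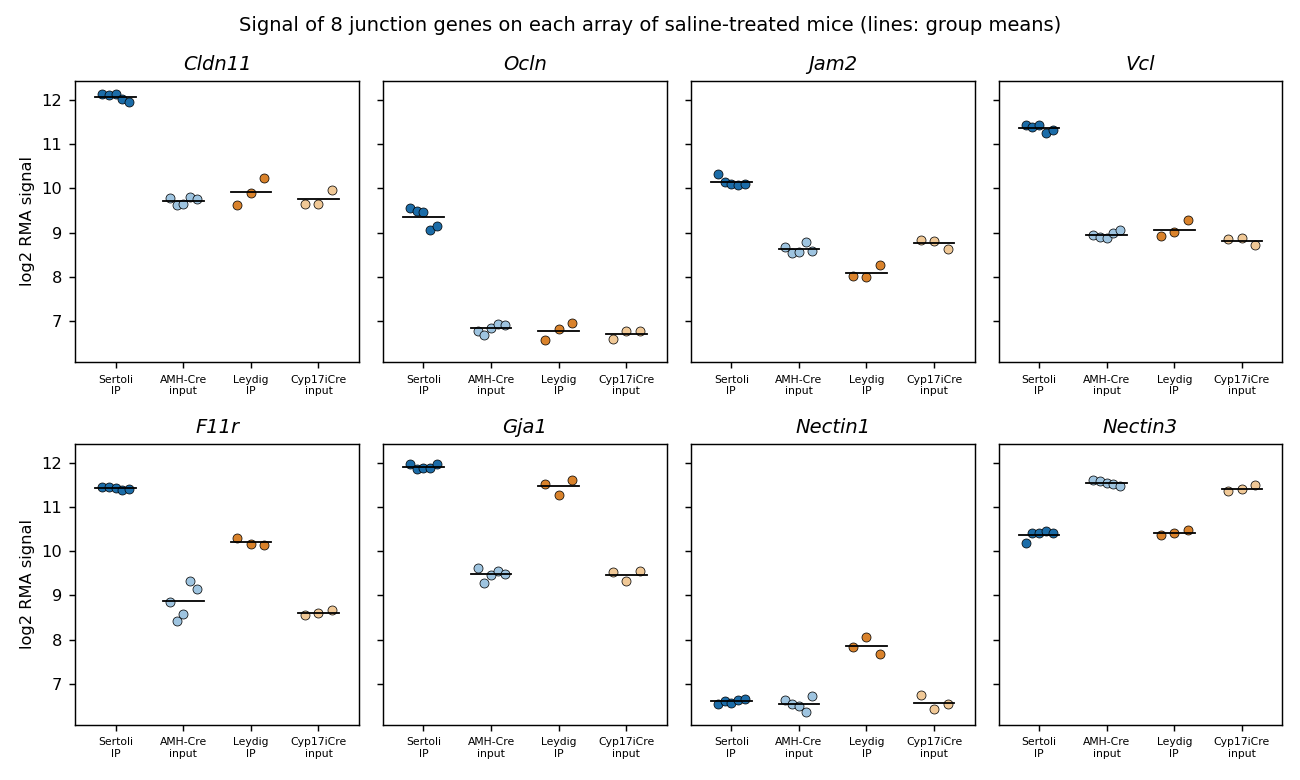
Log2 RMA signal (y axis) of 8 junction genes on every array of saline-treated mice, in Sertoli IPs and AMH-Cre inputs (5 arrays each) and Leydig IPs and Cyp17iCre inputs (3 each). Points are arrays and lines are group means. Cldn11, Ocln, Jam2 and Vcl are high in Sertoli IPs only, F11r and Gja1 in both IPs, Nectin1 in Leydig IPs only, and Nectin3 is lower in both IPs than in the inputs.

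Whether enrichment differed between the cell types was tested directly, as the Sertoli ratio of IP to input divided by the Leydig ratio. Each cell type comes from its own Cre line, so cell type, line, animals and processing cannot be told apart in this test. For 14 of the 29 genes Sertoli enrichment was the greater, compared with 5.98% of all probe sets tested, and for 1 gene it was the smaller, compared with 5.48%. Occludin showed the largest difference, 5.45-fold (4.27 to 6.96), followed by Cldn11 (4.57, 3.62 to 5.78), Jam2 (4.55, 3.82 to 5.41) and Vcl (4.47, 3.77 to 5.29). The tight junction genes Cgn (3.34), Jam3 (3.26), Cldn3 (3.22) and Tjp1 (2.65), the adherens genes Cdh2 (3.24), Pvr (3.19), Nectin2 (2.73) and Cdh1 (2.25) and the actin linkers Zyx (3.44) and Espn (2.66) made up the rest, with adjusted p between 4.24e-10 and 9.93e-06 over the 14. Cdh2 entered this group although it was called in neither cell type alone, because its ratio was above 1 in Sertoli cells and below 1 in Leydig cells. Nectin1 was the 1 gene with greater Leydig enrichment (0.429, 0.354 to 0.520, adjusted p = 1.17e-06).

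The genes enriched in both lines were not all alike in this test. F11r had a ratio of enrichments of 1.96 (1.44 to 2.67, adjusted p = 0.00152), Gja1 of 1.35 (1.12 to 1.63, adjusted p = 0.0123) and Ctnnb1 of 1.22 (1.07 to 1.40, adjusted p = 0.0217), all above 1 but under the fold of 2. For Ctnna1 the ratio was 1.14 with an interval from 0.941 to 1.38. For Nectin3, below 1 in both lines, the ratio was 0.886 with an interval from 0.769 to 1.02. Afdn (1.78, adjusted p = 2.17e-06) and Actn1 (0.588, adjusted p = 5.65e-04) passed the adjusted p without reaching the fold.

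The inputs of the lines were also set against each other, AMH-Cre over Cyp17iCre, since both are whole testis RNA. Here line, animals and processing cannot be told apart. With limma and a fold of at least 1.5, 0 of 29 junction genes were called, compared with 0.897% of all probe sets higher and 1.22% lower. By limma, 6 genes (20.7%) had an unadjusted p under 0.05, beside 27.0% of all probe sets tested, and the ordinary contrast called 0. The log2 ratios lay between -0.21 and 0.34. The lowest p belonged to Gjc1, with 7.46, 7.53, 7.49, 7.27 and 7.61 in AMH-Cre inputs and 7.19, 7.24 and 7.08 in Cyp17iCre inputs. Cdh2 followed, with 10.03, 10.19, 10.09, 9.92 and 10.17 against 9.75, 9.82 and 9.65 in Cyp17iCre inputs. The groups did not overlap for either gene, which a choice by lowest p favors, and the log2 ratios were 0.30 and 0.34 with adjusted p of 0.0204 and 0.0226.

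The 10 IPs of hormone-treated AMH-Cre: RiboTag mice, not used in the enrichment fit, were placed beside the same saline inputs. For 21 of the 29 genes all 10 treated IPs lay above all 5 inputs, compared with 25.2% of all probe sets tested, and for 5 they lay below all inputs, compared with 29.3%. The 21 include all 18 genes called higher in saline mice. Cldn11 lay between 11.88 and 12.19 in the treated IPs, with inputs between 9.63 and 9.81, and Ocln between 8.99 and 9.58, with inputs between 6.70 and 6.94. For the 6 treated Leydig IPs the count was 12 of 29 above (25.3% of all probe sets) and 9 below (31.3%), and the 12 include all 5 genes called higher in saline mice. Across all IPs of a line, the range of a gene's log2 signal had a median of 0.37 over the 29 genes in 15 Sertoli IPs, beside 0.49 over all probe sets tested, and of 0.56 in 9 Leydig IPs, beside 0.50. The widest ranges were those of Cdh1 in Sertoli IPs (0.85) and F11r in Leydig IPs (1.30), and the narrowest those of Afdn and Vezt in Sertoli IPs (0.21 for both) and Nectin3 in Leydig IPs (0.25).

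Hormone dependence was asked by comparing IPs with IPs of the same line, at a fold of at least 1.5. All 8 comparisons of this kind share groups: the FSH times share the acyline arrays, both antagonists share the saline arrays, and the LH times share the acyline arrays of their line. In Sertoli cells limma called 0 of 29 junction genes after acyline against saline, where 0% of all probe sets were higher and 0.00406% lower, and 0 after cetrorelix against saline (0% higher, 0.0122% lower). It called 0 after testosterone against cetrorelix alone (0.00406% higher, 0% lower), 0 after FSH for 1 h against acyline (0% in both directions) and 0 after FSH for 4 h against acyline (0.00811% higher, 0.0122% lower). Genes with an unadjusted limma p under 0.05 numbered 0, 1, 1, 4 and 0 in these 5 comparisons (0%, 3.45%, 3.45%, 13.8% and 0% of the 29). Over all probe sets tested the shares were 5.01%, 4.99%, 5.01%, 9.43% and 4.40%. The ordinary contrast called 0 in each, with and without adjustment. With 2 arrays in most groups, the widest 95% intervals of the 29 log2 ratios reached from -0.68 to 0.51 over the 5 comparisons.

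The Sertoli genes with the lowest p had small ratios. After acyline, Cgn had 11.31 and 11.34, against 11.22, 11.13, 11.20, 11.20 and 11.15 in saline IPs, and Cdh1 had 7.43 and 7.20, against 7.48, 7.71, 7.77, 7.36 and 7.55. Only Cgn was free of overlap, by less than 0.1 log2 units, and the log2 ratios were 0.15 and -0.26 with an adjusted p of 0.966 for both. After cetrorelix, Zyx had 10.53 and 10.42, against 10.42, 10.17, 10.24, 10.22 and 10.28 in saline IPs, and Actn1 had 6.47 and 6.68, against 6.43, 6.49, 6.42, 6.38 and 6.51. The log2 ratios were 0.21 and 0.13 (adjusted p = 0.933 for both), the Actn1 groups overlapped, and the Zyx groups met at 10.42. After testosterone, Cldn3 had 9.05 and 9.18, against 9.55 and 9.37 with cetrorelix alone, and Ctnna1 had 9.61 and 9.88, against 10.08 and 9.96. The testosterone arrays were the lower for both genes, but log2 ratios of -0.35 and -0.27 had an adjusted p of 0.930.

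FSH gave values of the same size. After 1 h of FSH, Cgn had 11.06 and 11.09, against 11.31 and 11.34 with acyline alone, and Actn1 had 6.74 and 6.68, against 6.51 and 6.41. Neither overlapped, with log2 ratios of -0.25 (adjusted p = 0.377) and 0.24 (adjusted p = 0.409). After 4 h of FSH, Tjp3 had 6.33 and 6.09, against 6.44 and 6.46 with acyline alone, and Ctnnb1 had 11.39 and 11.22, against 11.41 and 11.50, with log2 ratios of -0.24 and -0.15 and an adjusted p of 1.00 for both. Over saline, acyline, FSH for 1 h and FSH for 4 h, Cldn11 averaged 12.08, 11.99, 11.88 and 11.98 on the log2 scale.

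**Figure D3:**
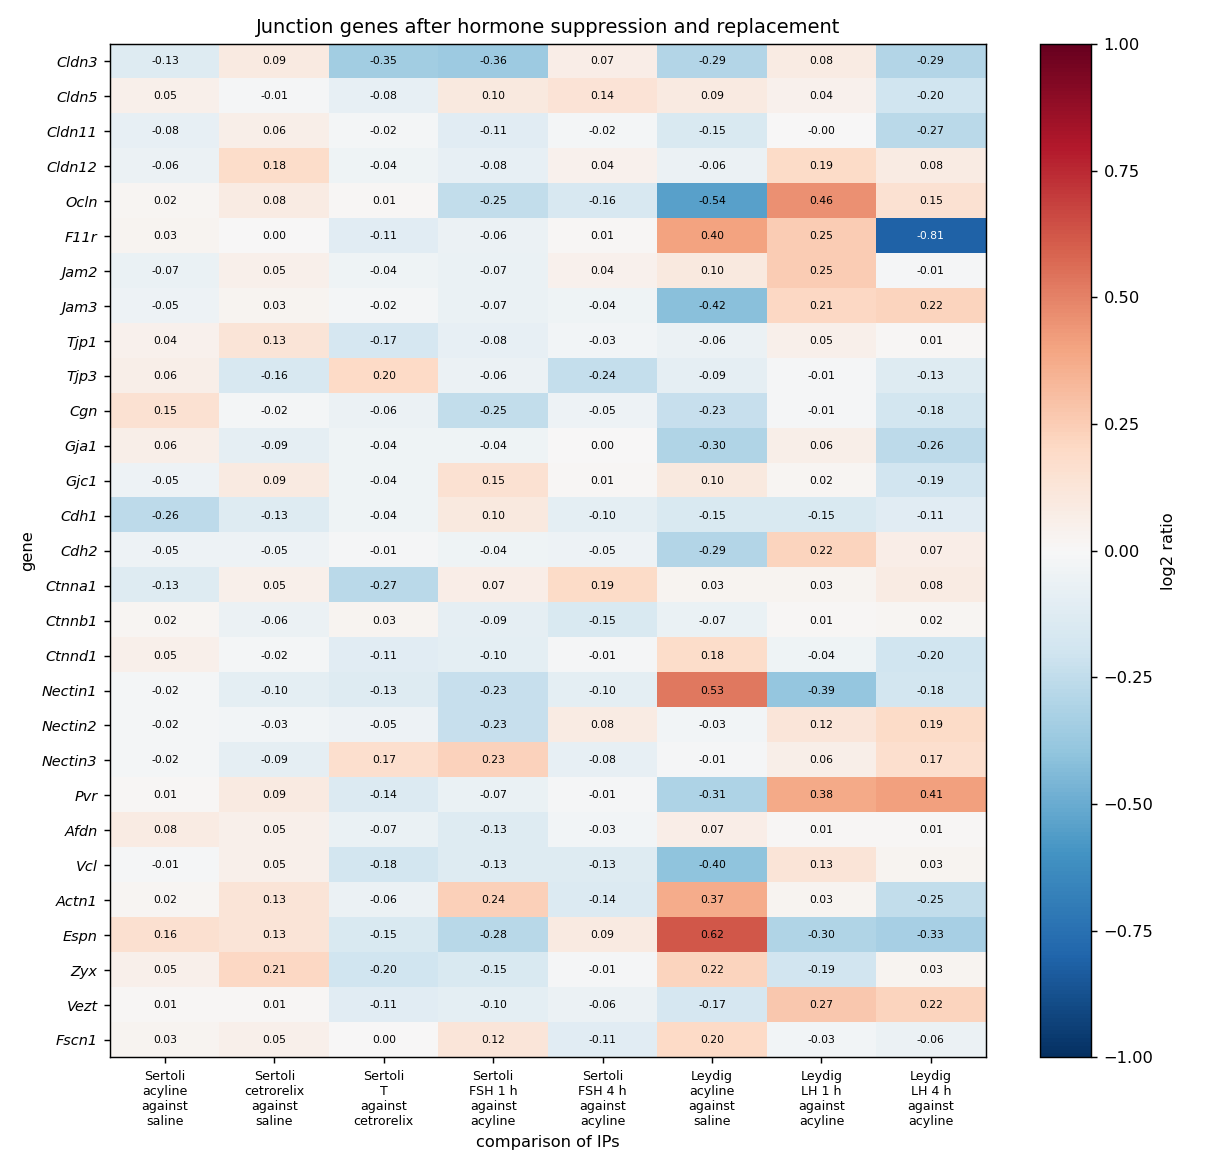
Log2 ratio (color and printed value) of the 29 tested junction genes, one per row, in 8 comparisons of IPs, one per column, with the treated group over its control. In the 5 Sertoli columns the values lie between -0.36 and 0.24, and in the 3 Leydig columns between -0.81 (F11r, LH for 4 h against acyline) and 0.62 (Espn, acyline against saline).

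In Leydig cells limma also called 0 of 29 junction genes: 0 after acyline against saline, where 0.0327% of all probe sets were higher and 0.110% lower, 0 after LH for 1 h against acyline (0.00818% higher, 0% lower) and 0 after LH for 4 h against acyline (0.245% higher, 0.368% lower). The log2 ratios of the 29 genes spanned -0.81 to 0.62. Genes with an unadjusted limma p under 0.05 numbered 6, 1 and 1 (20.7%, 3.45% and 3.45%), beside 13.7%, 6.06% and 18.3% of all probe sets tested. The ordinary contrast with adjustment called 0 in each, and without adjustment it called Espn after acyline and F11r after LH for 4 h.

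F11r came closest to a call. Its log2 signals were 10.29, 10.17 and 10.15 in saline IPs, 10.66 and 10.54 after acyline, 11.07 and 10.64 after LH for 1 h, and 9.77 and 9.80 after LH for 4 h. The LH 4 h arrays were the lowest of all 9 Leydig IPs, and the acyline arrays were above all saline arrays. At 4 h of LH the ratio to acyline was 0.569 (0.453 to 0.713), with an adjusted p of 0.0527 that ranged from 0.0335 to 0.266 over the alternatives. The ratio passed the test when probe sets were required to exceed a signal of 100. Relative to saline, acyline gave a ratio of 1.32 (1.07 to 1.62, adjusted p = 0.247). In the 15 Sertoli IPs F11r stayed within a log2 range of 0.31.

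Other Leydig values were small or close to the spread. Apart from Espn, the genes below had the lowest p of their comparison, a choice that favors groups without overlap. Ocln had 6.57, 6.83 and 6.96 in saline IPs, 6.30 and 6.20 after acyline, 6.85 and 6.56 after LH for 1 h, and 6.39 and 6.41 after LH for 4 h. The acyline arrays were the lowest, with log2 ratios of -0.54 for acyline against saline (adjusted p = 0.169) and 0.46 for LH for 1 h against acyline (adjusted p = 0.738). Jam3 had 7.58 and 7.48 after acyline, against 7.95, 7.75 and 8.13 in saline IPs, without overlap (log2 ratio -0.42, adjusted p = 0.210). In saline mice the Leydig IPs of Ocln overlapped the inputs, and those of Jam3 lay below them. Espn had 9.79 and 9.70 after acyline, against 8.92, 9.45 and 9.02 in saline IPs (log2 ratio 0.62, adjusted p = 0.223). After LH for 1 h, Jam2 had 8.49 and 8.41, against 8.17 and 8.22 with acyline alone (log2 ratio 0.25, adjusted p = 0.830). After LH for 4 h, Pvr had 8.30 and 7.87, against 7.63 and 7.72 with acyline alone (log2 ratio 0.41, adjusted p = 0.290), and its LH arrays differed from each other by as much as their mean differed from acyline.

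**Figure D4:**
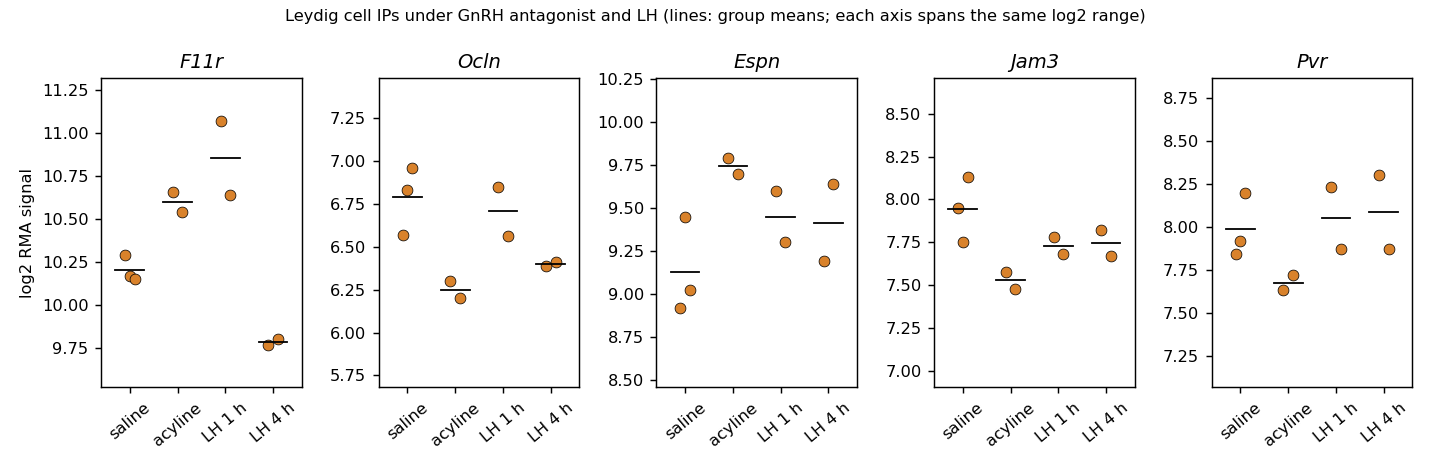
Log2 RMA signal (y axis, spanning the same number of log2 units in each panel) of F11r, Ocln, Espn, Jam3 and Pvr in Leydig IPs after saline (3 arrays), acyline, LH for 1 h and LH for 4 h (2 arrays each). Points are arrays and lines are group means. F11r is lowest after LH for 4 h (9.77 and 9.80), and Ocln is lowest after acyline (6.30 and 6.20).

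Finally, the acyline effects of both lines were compared directly, as the log2 change in Sertoli IPs minus that in Leydig IPs. Because acyline treatment was longer in the Leydig line, cell type, Cre line and length of treatment cannot be told apart in this comparison. With limma 0 of 29 genes differed, compared with 0.0433% of all probe sets higher and 0.0236% lower. By limma, 5 genes (17.2%) had an unadjusted p under 0.05, beside 8.66% of all probe sets tested, and the ordinary contrast called 0. The lowest p belonged to F11r, with log2 changes of 0.03 in Sertoli IPs and 0.40 in Leydig IPs (difference -0.37, adjusted p = 0.427), and to Vcl, with -0.01 in Sertoli IPs and -0.40 in Leydig IPs (difference 0.39, adjusted p = 0.451).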

How the data were processed

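The series holds log2 RMA values, normalized and deposited by the authors, for 35556 probe sets on 32 arrays. Per the study's methods, RNA was amplified before labeling. Of RMA the version was not given in the sources used. Groups were taken from the labels. The 4 arrays with cetrorelix, named input in 1 label but IP in the others, were taken as IPs. Members and gene lists were chosen with earlier results of these data known.

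Contrasts were fitted with limma 3.58.1 in R 4.3.3 on probe sets with a linear signal over 50 on at least 1 array of the fit, with Benjamini-Hochberg adjustment over all of them. Calls required adjusted p values under 0.05, with 2-fold as the minimum ratio for enrichment and its difference between lines and 1.5-fold elsewhere. IP against input was fitted within each line, differences of enrichment and inputs over both lines, and hormone contrasts over the 15 Sertoli or the 9 Leydig IPs. The number of arrays limits precision. Array values in the text are given for the called members with the 2 largest and 2 smallest ratios per role, and for the 2 members with the lowest p in hormone and input comparisons. Cldn11, Cldn3, Cdh2 and, in Leydig cells, Nectin3, Espn and the uncalled members of IP against input were added after their values were seen. From each further list the 2 largest and 2 smallest ratios are named. Alternatives were no filter, a signal minimum of 100, median centring, quantile normalization, an ordinary contrast with and without adjustment (without it, the nearest to the study's contrast), only the compared groups, the replicate block, Sertoli saline replicates 1 to 3 only, and leaving out each array, where a lone remaining array was assumed to vary like the other groups. The fits were tested on simulated data. Sequences are RefSeq (GRCm38.p6), and figures used Python 3.11.15.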

Additional observations from a re-analysis of the deposited data

Results flagged for a closer look

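The enrichment of 15 junction genes differed between the Sertoli and Leydig lines in the test of the difference itself. As log2 differences of enrichment, Sertoli minus Leydig, the tight junction genes gave 2.45 (Ocln), 2.19 (Cldn11), 2.18 (Jam2), 1.74 (Cgn), 1.70 (Jam3), 1.69 (Cldn3) and 1.41 (Tjp1). The adherens genes gave 1.70 (Cdh2), 1.67 (Pvr), 1.45 (Nectin2), 1.17 (Cdh1) and -1.22 (Nectin1), and the actin linkers gave 2.16 (Vcl), 1.78 (Zyx) and 1.41 (Espn). For the acyline response, limma called 0 of the 29 genes tested as different between the lines. An unadjusted p under 0.05 was found for 5 of them (17.2%), beside 8.66% of all probe sets tested.

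In the groups of 5 Sertoli saline arrays, 2 single arrays stood away from the rest by Dixon's test, out of 64 sets of 5 values examined, and chance alone marks about 1 in 20. Replicate 1 of the Sertoli IPs was the array in both. Jam2 had a log2 signal of 10.32 there, with the other IPs between 10.09 and 10.14, and Nectin3 had 10.19, with the other IPs between 10.40 and 10.45.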

How the results depend on the processing

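Among values of single genes recomputed under the alternatives, 1049 kept direction and side of the threshold, 2 gained a call, 1 lost it and 0 reversed. Among counts, 245 stayed within 1.5 times and 8 did not. Leydig IP against input had 0 lower junction genes as reported, but 2 (Cdh2 and Nectin3) with median-centred arrays and between 0 and 2 when single arrays were left out. Nectin3 was called without Leydig input replicate 1 or 2, Cdh2 without input replicate 3, and both without IP replicate 3. The lowest of these log2 ratios was -1.09. Ctnnb1 was not called without Leydig IP replicate 3 (0.99). LH for 4 h against acyline had 1 called gene, F11r, with a signal minimum of 100 (log2 ratio -0.81, limma adjusted p = 0.0335) and 1, the same gene, by the ordinary contrast with no adjustment. Leydig acyline against saline had 1 by that contrast (Espn).

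With the replicate number as a block, 18 genes were higher and 1 was lower in Sertoli IPs, 5 were higher in Leydig IPs and 0 were called in each hormone comparison. Deviations of same-numbered IPs and inputs from their group means correlated between -0.03 and 0.16 in Sertoli cells, where 2 of 5 pairs fitted their own number best, and between 0.02 and 0.15 in Leydig cells, where 2 of 3 did, so numbers were not taken as pairs. The study speaks of IPs and their own inputs without saying that equal numbers mark them. The block changed no call among the junction genes but moved the count over all probe sets to 215 for the inputs (541 without the block), 0 for Leydig acyline (35), 4 for LH for 4 h (150) and 5 for the difference of acyline effects (17). Where same-numbered arrays went apart (correlations of -0.15 and -0.18), crossed numbers, chosen after seeing the data, gave 0 junction genes, with 1 probe set overall for testosterone and 9 for LH for 4 h. For LH for 4 h the count over all probe sets also ranged from 1 (only the groups compared) through 19 (no filter), 90 (quantile normalization) and 235 (median-centred) to 264 (signal minimum of 100), and from 1 to 482 with single arrays left out. Leydig acyline gave 15 with no filter, 59 with a minimum of 100 and 246 with only the groups compared, the difference of acyline effects gave 6 to 45, and the Sertoli hormone contrasts and LH for 1 h gave 0 to 15, with 0 to 5 as the count used. The ordinary contrast gave 2 with adjustment and 699 without it for LH for 4 h, 0 and 581 for Leydig acyline, 10 and 479 for the difference of acyline effects, and at most 2 and 318 for the others among IPs. The study ran its contrasts in other software, and these counts are not those it reported. The alternative of another probe set per gene gave no value, since each gene has 1. The number of arrays, 2 in each hormone group, limits the hormone results.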
